A study of Rattus norvegicus with 18 samples.

Results

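The 2 mature arms of the rat miR-21 precursor, rno-miR-21-5p and rno-miR-21-3p, were described in livers of obese ZDF rats given colesevelam, obese ZDF rats given vehicle, and lean rats. They were taken by row name and are 2 of 401 miRNA rows. They were picked with the results of these libraries already known, namely a 3p arm higher in obese than in lean liver beside a 5p arm that was not. Their levels, fold changes and ratios are therefore given as a description, with no p-value.

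Each group had 6 liver small RNA libraries from rats 8 weeks of age, 18 in all. The colesevelam group was labelled obese with colesevelam as the agent, and the vehicle group obese with vehicle as the agent. The lean group was labelled lean, with no agent. The labels give the strain ZDF-Leprfa/Crl to every sample, the lean ones too, so only its name and phenotype mark the lean group. Neither dose nor length of treatment is given. In ZDF rats a mutated leptin receptor leads to obesity and diabetes, and colesevelam is a polymer taken by mouth that holds back bile acids in the intestine. Some libraries of a group share a label number. They are colesevelam 2 and 3, colesevelam 4 and 5, lean 1 and 2, lean 4 and 5, and vehicle 3 and 4. The labels do not tie each library to an animal of its own, so the 6 libraries of a group may not be independent. For pairs of 1 label number, the chi-square per degree of freedom of their counts was 14.1 and 65.7 in colesevelam (order as above). It was 177 and 144 for the lean pairs and 55.4 for the vehicle pair. In each group the lowest value fell on libraries of different numbers. These were lean 1 and 5 (4.34), vehicle 1 and 3 (9.55) and colesevelam 1 and 2 (9.72). Depth was not matched between pairs, and whether libraries of 1 number came from 1 animal was not tested. A p-value here reflects how far libraries differ, in part perhaps for technical reasons.

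miR-21 is one of the most abundant microRNAs of many injured and dividing tissues. Its hairpin is cut by Dicer into a duplex of 2 arms, of which the 5p arm is usually loaded into Argonaute as the guide strand, while the 3p arm, long written miR-21*, is usually degraded as the passenger strand. The 5p arm represses mRNAs such as Pdcd4 and Spry family members, and it is studied in the liver for its part in steatosis, inflammation and fibrosis. Transcription of the gene is known to respond to STAT3 and AP-1.

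The mature sequences and the hairpin are shown because every value here is a count of reads assigned to one of these arms. They are RefSeq sequences of the GRCr8 assembly, written 5′ to 3′. In the arms the capitals mark the seed, bases 2 to 8, which pairs with target mRNAs. In the hairpin the capitals mark the arms.
miR-21-5p: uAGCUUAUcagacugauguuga
miR-21-3p: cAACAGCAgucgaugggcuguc
miR-21 hairpin: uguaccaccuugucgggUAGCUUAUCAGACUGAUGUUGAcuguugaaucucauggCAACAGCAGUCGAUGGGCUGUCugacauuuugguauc

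Both arms are 22 bases long, and both match the sequences of the deposited table. In GRCr8 the gene Mir21 lies on the minus strand of chromosome 10, from 71902600 to 71902691, with the 5p arm at 71902653 to 71902674 and the 3p arm at 71902615 to 71902636. The protein-coding gene Vmp1 lies 531 bases away. The deposited table puts the arms at positions 76197098 to 76197119 and 76197136 to 76197157 of the plus strand of chromosome 10, in a build that the sources used here do not give. In the hairpin of 92 bases the arms span positions 18 to 39 and 56 to 77. In the minimum free energy fold (RNAfold, -42.6 kcal/mol) 19 bases of each arm paired with the other arm. The arms differ in composition, with a GC content of 59.1% in the 3p arm and 36.4% in the 5p arm. Their seeds differ, and neither seed was found in another of the 401 rows or in another of the 693 mature rat miRNAs of the RefSeq set.

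The libraries held 32936 to 122880 miRNA counts in the colesevelam group, 37909 to 147314 in the vehicle group and 110353 to 881450 in the lean group, so lean libraries were the deepest.

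miR-21-5p was among the most abundant miRNAs of all 3 groups. Over the 18 libraries it had 163657 counts, 5.91% of the total and rank 4 of all rows, and it ranked between 3 and 9 in each single library. Counts were 1547 to 6591 per library in the colesevelam group (median 3118), 1671 to 12296 in the vehicle group (median 3456) and 5960 to 52156 in the lean group (median 10330). As a share of all counts the arm stood at 5.51 ± 1.44% in colesevelam, 6.61 ± 2.18% in vehicle and 5.60 ± 0.989% in lean libraries (mean ± SD, n = 6 each).

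The 3p arm was rare, with 536 counts over all libraries, 0.0194% of the total and rank 93. Its counts ran from 14 to 38 in colesevelam libraries (median 16.5), from 18 to 93 in vehicle libraries (median 32.5) and from 8 to 88 in lean libraries (median 18). The lean libraries thus gave about as many 3p reads as the obese ones from far more reads in all. Within a library the 3p arm ranked 60 to 93 in the colesevelam group and 58 to 70 in the vehicle group, against 109 to 148 in the lean group. These small counts limit the precision of each library's 3p value, and the exact 95% intervals given with the ratios cover counting error only, since these reads carry no molecular identifiers and may be copies of 1 molecule.

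Levels were compared as CPM, counts scaled to 1 common total with TMM factors, which assume that most miRNAs do not differ, so a level is read against the rest of its library. On that scale, though not with the authors' size factors, miR-21-3p was lowest in lean liver. It ranged from 359 to 789 CPM in vehicle libraries (median 628), against 38.2 to 116 CPM in lean libraries (median 100.2), and each vehicle library lay above each lean one. In colesevelam libraries it ranged from 180 to 621 CPM (median 329), again above every lean library. The spread within a group was a CV of 44.0% in colesevelam, 24.5% in vehicle and 33.9% in lean libraries.

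The order of the group means of miR-21-3p was thus vehicle (598 ± 146 CPM), colesevelam (355 ± 156) and lean (89.3 ± 30.2, SD, n = 6 each). The upper neighbours in that order overlapped. Colesevelam 1, at 621 CPM, stood within the vehicle range, and vehicle 4, at 359 CPM, stood within the colesevelam range, while colesevelam 2, 5 and 6 lay below every vehicle library. The log2 fold change (± SE, edgeR fit of all miRNAs) was 2.73 ± 0.32 between vehicle and lean, -0.78 ± 0.31 between colesevelam and vehicle and 1.95 ± 0.32 between colesevelam and lean. The comparisons share libraries, so these values are not independent of each other.

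miR-21-5p did not separate the groups. It ranged from 41398 to 73166 CPM in colesevelam libraries, from 41670 to 111162 CPM in vehicle libraries and from 36671 to 72712 CPM in lean libraries. The means were 57010 ± 12114, 64984 ± 26407 and 57014 ± 13478 CPM, in that order (SD, n = 6 each), and all 3 ranges overlapped. The highest value came from vehicle 4, which had the lowest 3p level of its group. The log2 fold change was 0.19 ± 0.24 between vehicle and lean, -0.19 ± 0.24 between colesevelam and vehicle and 0.00 ± 0.24 between colesevelam and lean.

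**Figure D1:**
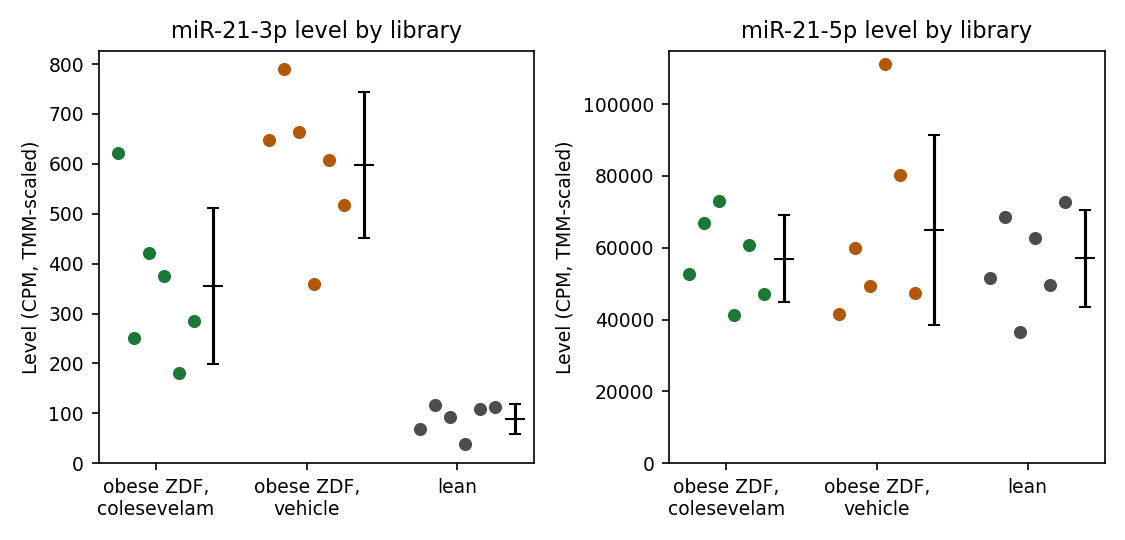
Levels of miR-21-3p (left) and miR-21-5p (right) in CPM for each library of the colesevelam, vehicle and lean groups, with the mean and SD of 6 libraries beside the points. On this scale every obese library lies above every lean one for the 3p arm (180 CPM or more against at most 116), while the 5p ranges overlap; with the authors' scaling the colesevelam to lean difference of the 3p arm turns negative.

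Set among the 112 miRNAs tested, the 3p arm had the second largest absolute log2 fold change of vehicle against lean (rank 2) and the third largest of colesevelam against lean (rank 3), where the 5p arm ranked 68 and 112. In colesevelam against vehicle the ranks were 16 for the 3p and 75 for the 5p arm. By the quasi-likelihood F test of edgeR, adjusted after Benjamini and Hochberg (BH), 6.25% of tested miRNAs were called in vehicle against lean (3.57% higher, 2.68% lower). Colesevelam against vehicle had 10.7% called (7.14% higher, 3.57% lower), and in colesevelam against lean 21.4% (11.6% higher, 9.82% lower). Ranges did not overlap for 2.68% of tested miRNAs in vehicle against lean, 5.36% in colesevelam against vehicle and 8.04% in colesevelam against lean. Of the pair, the 3p arm did not overlap in the comparisons with lean. The pair was chosen on these contrasts, and the 3p arm passed the count filter only through the obese libraries. Nothing is therefore read from its ranks or its lack of overlap. The median log2 fold change of all tested miRNAs was 0.01, -0.01 and -0.08 in those 3 comparisons. Among 40 miRNAs with total counts within 2-fold of those of miR-21-3p the log2 fold change of vehicle against lean ran from -1.94 to 1.43, with a median of -0.05.

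The level of each arm depended on the scaling, which by construction cannot alter the ratio between them within a library. In the authors' deposited table, miR-21-3p stands at a log2 fold change of 0.34 between vehicle and lean, -1.26 between colesevelam and vehicle and -0.92 between colesevelam and lean. For miR-21-5p the authors' deposited table gives -2.11, -0.61 and -2.73 in the same order. Those values use size factors that do not follow the miRNA totals, and the median of all rows listed in the authors' deposited table is -2.41, -0.36 and -2.87. Relative to that median, the 3p arm of the authors' deposited table lies at 2.75, -0.90 and 1.95, and the 5p arm at 0.30, -0.26 and 0.15. The 3p value minus the 5p value in the authors' deposited table is 2.45 between vehicle and lean, -0.65 between colesevelam and vehicle and 1.80 between colesevelam and lean.

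Because both arms were read from 1 library, their ratio cancels any scale factor between libraries that acts on both arms alike. It does not cancel a difference between libraries that acts on the arms unequally, such as one linked to GC content. There were 3.23 to 15.6 counts of the 3p arm per 1000 counts of the 5p arm in vehicle libraries (median 12.1), against 0.609 to 2.52 in lean libraries (median 1.61). Colesevelam libraries had 2.96 to 11.8 (median 5.89). The ranges of both obese groups lay above the lean range, and they overlapped each other.

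The libraries next to the gap show how far counting error reaches. Vehicle 4 had 18 counts of 3p to 5581 of 5p, a ratio of 3.23 per 1000 with an exact (Clopper-Pearson) 95% interval of 1.91 to 5.10. Colesevelam 5 had 18 to 6075, or 2.96 (1.75 to 4.69). The highest lean library, lean 3, had 21 to 8327, or 2.52 (1.56 to 3.86). The intervals of these 3 libraries overlap, so the lowest obese libraries and the highest lean one were not distinguishable at this depth. At the far ends stood vehicle 1, with 26 to 1671, a ratio of 15.6 (10.1 to 22.9), and lean 4, with 16 to 26263, a ratio of 0.609 (0.348 to 0.990).

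On the log2 scale, with 0.5 added to each count, the mean ratio was -7.37 ± 0.75 in colesevelam, -6.70 ± 0.84 in vehicle and -9.33 ± 0.71 in lean libraries (SD, n = 6 each). Vehicle lay 2.64 above lean, a 6.23-fold difference, and more than the SD of either group. Colesevelam lay 1.96 above lean, or 3.90-fold. Colesevelam stood 0.626-fold relative to vehicle (difference -0.68), which is less than the SD within either group. Summed over a group, there were 121 counts of 3p to 22311 of 5p in colesevelam (5.42 per 1000), 246 to 28469 in vehicle (8.64 per 1000) and 169 to 112877 in lean libraries (1.497 per 1000).

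**Figure D2:**
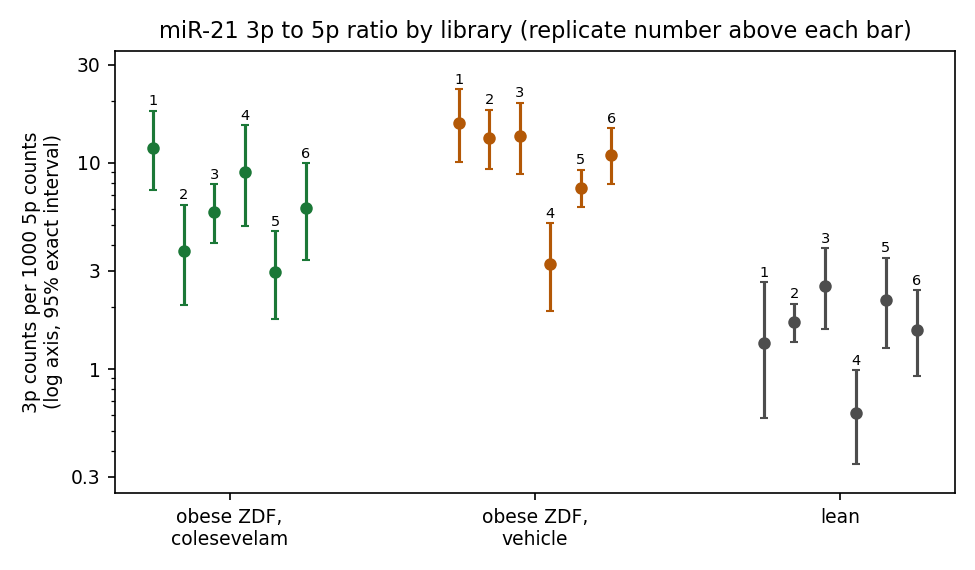
Counts of miR-21-3p per 1000 counts of miR-21-5p on a log axis for each library, with exact 95% intervals for counting error and the replicate number above each bar. Vehicle libraries span 3.23 to 15.6, colesevelam libraries 2.96 to 11.8 and lean libraries 0.609 to 2.52.

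Total counts and the ratio moved in opposite directions, and the lean group, with the lowest ratios, had the deepest libraries. Over the 18 libraries the log2 ratio correlated with log2 total counts at r = -0.80, and at r = -0.47 after subtracting group means. With log2 total counts as a term in a linear model, a choice made after seeing the data, the difference was 1.78 for vehicle against lean, 1.11 for colesevelam against lean and -0.67 for colesevelam against vehicle. At like depth, vehicle 5 (147314 counts) had 7.56 per 1000 (95% interval 6.10 to 9.27) and colesevelam 5 (122880 counts) had 2.96 (1.75 to 4.69). Lean 1 (110353 counts) had 1.34 (0.579 to 2.65) and lean 5 (152410 counts) had 2.17 (1.26 to 3.47). The interval of colesevelam 5 overlaps those of both these lean libraries. Of the obese libraries, only vehicle 5 and colesevelam 5 were as deep as the shallowest lean one, so depth and group cannot be told apart here.

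A GC-related difference between libraries also moved with the ratio. The slope of log2 CPM on GC content over the other tested miRNAs averaged -0.655 ± 0.255 per 10 GC points in colesevelam, -0.479 ± 0.286 in vehicle and -0.662 ± 0.268 in lean libraries (SD, n = 6 each). Within the lean group the slope was -0.37, -0.47 and -0.42 in lean 1, 3 and 5, but -0.86, -0.95 and -0.90 in lean 2, 4 and 6. The ratio correlated with that slope at r = 0.57 over 18 libraries and at r = 0.74 after subtracting group means. Vehicle 4 and colesevelam 5, the obese libraries with the lowest ratios, had slopes of -0.91 and -0.95, the steepest and second steepest of their groups. With the slope as a term, also chosen after seeing the data, the difference was 2.25 for vehicle against lean, 1.95 for colesevelam against lean and -0.31 for colesevelam against vehicle. Of the other tested miRNAs, 11 had a GC content at or above that of miR-21-3p, and their log2 fold change of vehicle against lean ran from -0.50 to 0.58 with a median of 0.05. For the 13 with a GC content at or below that of miR-21-5p it ran from -1.27 to 0.75, with a median of -0.17. In colesevelam against vehicle the medians were -0.27 for the 11 and 0.07 for the 13. In colesevelam against lean they were -0.14 and -0.10.

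**Figure D3:**
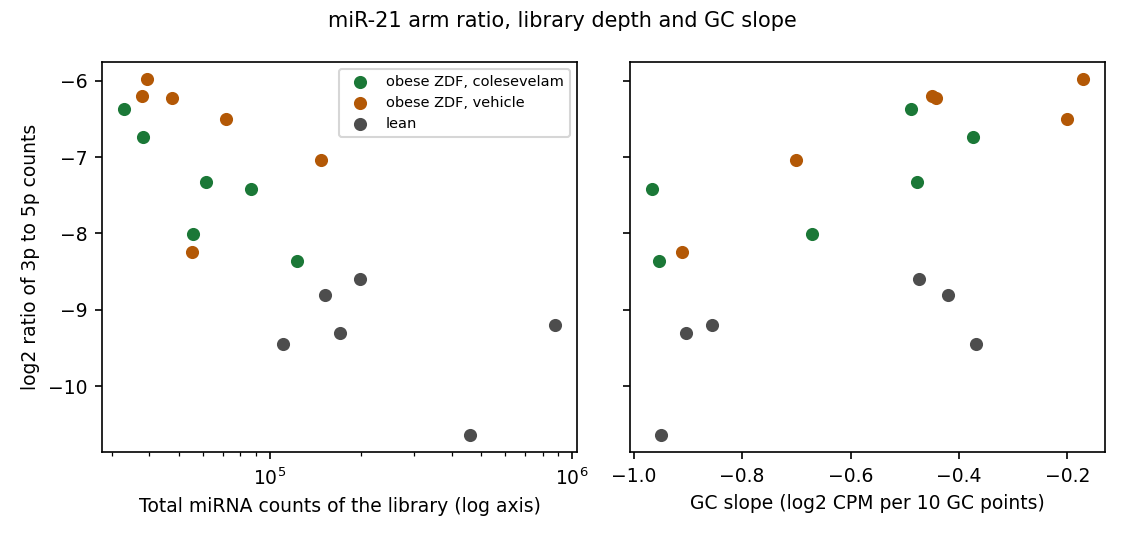
The log2 ratio of miR-21-3p to miR-21-5p counts against the total counts of each library (left, log axis) and against the slope of log2 CPM on GC content (right), coloured by group. The ratio is lower in deeper libraries (r = -0.80) and higher where the slope is nearer 0 (r = 0.57), each over 18 libraries.

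To see how arm ratios of other precursors behaved, the same log2 ratio of minor to major arm was taken for the 12 other precursors with both arms tested. The miR-21 pair was chosen for its difference from lean, and its 3p arm passed the count filter only through the obese libraries. Its value is therefore set beside the others only as a description. In vehicle against lean, where miR-21 stood at 2.64, the differences of the 12 others ran from -1.28 to 0.72 with a median of -0.03. Of the 12, 6 lay above 0. None passed an exact two-sided permutation test over libraries with BH adjustment (0%), with 5 at an unadjusted p under 0.05 and a smallest p of 0.0130, and none was free of overlap (0%). The largest of the others was miR-423, whose minor arm is the GC-rich miR-423-5p, at -1.28. It was followed by miR-339 at 0.72, miR-802 of hepatocytes at 0.66, miR-148a at 0.60 and the endothelial miR-126a at 0.54 (exact permutation adjusted p = 0.0883 for each but miR-339, at 0.299).

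In colesevelam against lean, a contrast on which the pair was also chosen, the other precursors ran from -1.64 to 0.88, against 1.96 for miR-21. By the exact permutation test 2 of the 12 were called (16.7%), both lower: miR-28 at -1.64 (adjusted p = 0.0260) and miR-423 at -1.25 (adjusted p = 0.0390). For 1 of the 12 (8.33%) the ranges did not overlap. miR-21, at -0.68 in colesevelam against vehicle, ranked 4 of 13 by absolute size. There 2 of the 12 others were called by the exact permutation test (16.7%), miR-28 at -1.20 and miR-122, the hepatocyte miRNA, at -0.97 (adjusted p = 0.0390 for each), and ranges were free of overlap in none (0%). Leaving out single libraries took these calls down to 0 in either comparison of colesevelam.

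**Figure D4:**
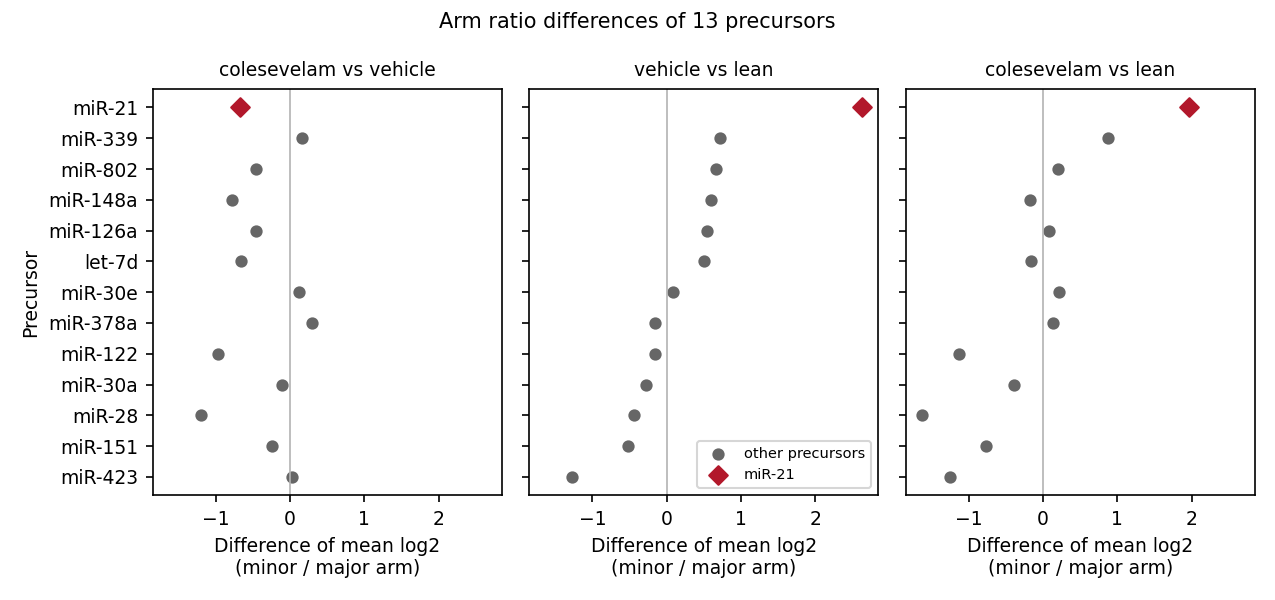
Difference of the mean log2 ratio of minor to major arm for 13 precursors in 3 comparisons; each point is 1 precursor and the diamond is miR-21. In vehicle against lean the other 12 precursors lie between -1.28 and 0.72, and miR-21, which was chosen for its difference from lean, at 2.64.

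The arms did not follow each other across libraries. Over the 18 libraries, which share depth and GC differences, log2 CPM of the arms correlated at r = 0.01, and at r = -0.26 after subtracting group means. The miRNAs closest to miR-21-3p of 111 compared were miR-6215 (Pearson r = 0.77), miR-140-3p (0.69), miR-378a-3p (0.69), miR-340-5p (0.66) and miR-23b-3p (0.65), with miR-21-5p at rank 58. After subtracting group means the highest were miR-340-5p (0.57), miR-193b-3p (0.53), let-7d-3p (0.48), miR-99b-5p (0.40) and miR-145-5p (0.40), and miR-21-5p stood at rank 95. For miR-21-5p the closest were miR-30e-5p (0.89), miR-30a-5p (0.80), miR-101b-3p (0.78), miR-802-5p (0.76) and miR-26b-5p (0.74), with the 3p arm at rank 49. After subtracting group means miR-30e-5p (0.95), miR-101b-3p (0.88), miR-101a-3p (0.86), miR-30c-5p (0.83) and miR-30a-5p (0.81) led. The 5p arm thus had closer matches than the 3p arm, whose counts were far lower.

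miRNAs linked to the settings in which miR-21 is studied were tested in the same fit, without miR-21 itself. These lists were chosen with earlier results of these data known, so their p-values are not independent of that choice. Of 14 fibrosis-linked miRNAs, 5 could be tested. In vehicle against lean 1 of the 5 fell, miR-200b-3p, which keeps epithelia from taking on a mesenchymal state, at -1.94 ± 0.35 (edgeR adjusted p = 0.000653), and none rose. miR-29a-3p, which represses collagens, was at 0.27 ± 0.17 and miR-199a-3p of stromal cells at -0.06 ± 0.27. Of all tested miRNAs 2.68% were called lower in that comparison. The list's median was -0.06, against 0.01 for all tested miRNAs. None of the 5 passed in colesevelam against vehicle by edgeR, whose unadjusted p was under 0.05 for 24 of all 112 miRNAs, and the list's median was -0.22. In colesevelam against lean miR-30c-5p (-0.91 ± 0.20, edgeR adjusted p = 0.00200) and miR-200b-3p (-1.68 ± 0.34, 0.00137) fell, beside 9.82% called lower of all tested miRNAs.

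Of 11 miRNAs linked to NF-kB, STAT3 or AP-1, 5 could be tested. In vehicle against lean none passed by edgeR, and the feedback inhibitors of NF-kB signalling miR-146a-5p and miR-146b-5p stood at 0.03 ± 0.27 and 0.01 ± 0.29. In colesevelam against vehicle both rose, by 1.12 ± 0.27 (edgeR adjusted p = 0.0114) and 1.27 ± 0.29 (0.00880), while miR-21-3p stood at -0.78. Of all tested miRNAs 7.14% were called higher in that comparison. With the authors' size factors miR-146a-5p and miR-146b-5p missed the threshold (0.98 and 1.09). In colesevelam against lean both rose too, by 1.15 ± 0.27 (edgeR adjusted p = 0.00322) and 1.28 ± 0.27 (0.00167), but with the authors' size factors they lay at -1.43 and -1.32. Their mature sequences are very similar, so reads may be shared. miR-155-5p, of activated leukocytes, had 7, 1 and 12 counts over the colesevelam, vehicle and lean libraries and was not tested.

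Markers of liver cell types are given because a bulk sample cannot tell fewer cells of a type from less RNA per cell. Of all tested miRNAs 2.68% were called lower in vehicle against lean, 3.57% in colesevelam against vehicle and 9.82% in colesevelam against lean. The 7 stellate and stromal miRNAs with a row made up 3.22 to 5.07% of counts in colesevelam libraries, 3.58 to 5.25% in vehicle libraries and 3.65 to 4.44% in lean libraries, and none of their 3 tested members passed in any comparison. The 6 leukocyte miRNAs made up 0.0805 to 0.128%, 0.0958 to 0.191% and 0.171 to 0.328% in the same order of groups. Of the 2 tested, miR-142-5p fell in vehicle against lean (-1.27 ± 0.36, edgeR adjusted p = 0.0328) and in colesevelam against lean. In colesevelam against vehicle it stood at 0.09 ± 0.37. The other, miR-150-5p of lymphocytes, fell in both comparisons of colesevelam but stood at -0.0002 ± 0.34 in vehicle against lean. The 6 biliary and epithelial miRNAs made up 0.0610 to 0.103%, 0.0452 to 0.119% and 0.0724 to 0.225%. In vehicle against lean miR-200b-3p alone of their 2 tested members fell, and in colesevelam against lean both did, with miR-375-3p at -1.07 ± 0.37 (edgeR adjusted p = 0.0433).

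The 6 hepatocyte miRNAs held 33.2 ± 5.74% of counts in colesevelam, 29.2 ± 5.46% in vehicle and 37.3 ± 5.53% in lean libraries (SD, n = 6 each), and 1 of them, miR-122-3p, fell in colesevelam against lean (-0.85 ± 0.22, edgeR adjusted p = 0.00883). The 2 endothelial miRNAs held 0.497 to 1.02%, 0.406 to 0.813% and 0.614 to 1.22%, and the 3 erythroid ones with a row 0.00489 to 0.0366%, 0.0126 to 0.0353% and 0.0203 to 0.0508%; none of their tested members passed. Every cell type marker with a row had counts in each group, though miR-142-3p had 1, 5 and 63 over the colesevelam, vehicle and lean libraries. The part of any cell type in the miR-21-3p difference was not tested. The fall of miR-142-5p in vehicle against lean was lost in 15 of 30 alternative fits, that of miR-150-5p in colesevelam against vehicle in 15, that of miR-375-3p in 14, and that of miR-142-5p in colesevelam against lean in 8.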

How the data were processed

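RNA came from frozen liver (Norgen kit) and was made into libraries with a TruSeq RNA kit, per the labels' protocols. The submitters' processing notes name Bowtie 1.1.2 and DESeq2 1.18.1. Build, annotation and counting tool: not given in the sources used here. Values per library are estimated counts of each mature miRNA, deposited without scaling; 297 values in 42 rows were not whole, and all were rounded. The authors' deposited table also holds mean scaled counts per comparison, log2 fold changes, p-values and a mark of significance coded 0 or 1. The authors' size factors were recovered from those means, which they returned within 1% for every listed miRNA but miR-184 in colesevelam against vehicle.

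Rows were kept by filterByExpr (minimum count 10, total 15), leaving 112 of 401, with 99.6% of counts. They were scaled by TMM (factors 0.814 to 1.19) and fitted in edgeR 4.0.16 (R 4.3.3) with a robust quasi-likelihood fit of all 18 libraries and its F test, BH-adjusted, threshold 0.05. The edgeR step was tested on simulated data. Arm ratios used counts plus 0.5. Exact two-sided permutation tests treated libraries as independent, and over 6 against 6 libraries they cannot go below p = 0.00216. Correlations used log2 CPM with 0.5 added to each count. RNAfold was from ViennaRNA 2.7.2, and intervals from scipy 1.17.1.

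Alternatives included limma-voom (limma 3.58.1) and DESeq2 1.42.0. The pair, the lists and the named miRNAs were chosen with earlier results of these data known. Named miRNAs were, for each arm, the 5 with the highest correlation, listed miRNAs past the threshold and up to 4 others, and the 5 precursors with the largest arm ratio difference in vehicle against lean. No sample column was left unmatched.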

Additional observations from a re-analysis of the deposited data

Results flagged for a closer look

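Of the 12 groups of values examined (the 3p level, the 5p level, the ratio and the total counts, in each group), 1 held a library far from the others. Vehicle 5 had 147314 miRNA counts, and its gap to the next vehicle library was 0.692 of the range of that group. The threshold was 0.625, which chance alone passes in about 1 in 20 groups of normally distributed values. Its miR-21 ratio, 7.56 counts of 3p per 1000 of 5p, lay within the range of the other vehicle libraries.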

How the results depend on the processing

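The difference of the log2 ratio between the miR-21 arms kept its direction in every alternative, and moved by more than 1 SD between libraries only with depth as a term (1.78 for vehicle against lean, 1.11 for colesevelam against lean). Leaving out single libraries gave 2.38 to 2.95 for vehicle against lean, 1.70 to 2.16 for colesevelam against lean and -0.98 to -0.48 for colesevelam against vehicle; summed counts, medians, other added counts and unrounded values moved none by 1 SD. For the log2 fold changes, 11 of 12 alternatives lay within 1 SD in each comparison with lean, and 12 of 12 in colesevelam against vehicle. The exception was the authors' size factors, with 0.34 and -0.92 for miR-21-3p and -2.11 and -2.73 for miR-21-5p (vehicle and colesevelam against lean), where the median of all tested miRNAs was -2.36 and -2.75. Leaving out single libraries gave 2.51 to 2.88, -0.93 to -0.59 and 1.75 to 2.10 for the 3p arm, and 0.04 to 0.29, -0.27 to 0.06 and -0.12 to 0.12 for the 5p arm (vehicle against lean, colesevelam against vehicle, colesevelam against lean).

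The sample numbers of the titles did not pair libraries across groups. In the 18 pairs of libraries of 1 sample number r ran from -0.65 to 0.58, and 4 correlated best with their own number. Libraries of a group that share a label number were compared by counts only. With the replicate block the 3p arm stood at 2.73, -0.78 and 1.96, and the 5p arm at 0.15, -0.12 and 0.03. The ratio difference, at 2.64, -0.68 and 1.96, could not change, because each group holds 1 library of each sample number.

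Calls over all miRNAs were 7 in vehicle against lean, 12 in colesevelam against vehicle and 24 in colesevelam against lean. With the authors' size factors they were 121, 2 and 113 (0, 2 and 0 higher, against 4, 8 and 13). In colesevelam against vehicle there were 6 with upper-quartile factors (all higher), 7 without a filter and, all higher too, 7 with libraries of 1 label number summed and 7 with the replicate block. With library totals only, 7 of 14 and 11 of 29 were higher in the comparisons of colesevelam with vehicle and lean, and without miR-192-5p 7 of 13 and 9 of 28. Without single libraries the calls were 5 to 8, 7 to 14 and 17 to 32; without vehicle 6 there were 7 in colesevelam against vehicle.

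Called arm ratios of other precursors (0, 2 and 2) were 0 in colesevelam against vehicle and 0 in colesevelam against lean when the minor arm needed at least 50 counts, and 1 in colesevelam against lean with 1 added to each arm. Without single libraries they were 0, 0 to 3 and 0 to 2. In colesevelam against vehicle 1 remained without colesevelam 2, and 0 without colesevelam 3 to 6 or vehicle 1, 2, 3 or 5; in colesevelam against lean 1 remained without any of colesevelam 1 to 5, and 0 without lean 1, 3, 4, 5 or 6. Depth limits the 3p arm, whose 8 to 93 counts per library leave intervals of the ratio that overlap between the lowest obese and the highest lean libraries.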
